A study of Homo sapiens with 6 samples.

Results

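Vimentin, nestin, synemin, keratins 8 and 18, the light and medium neurofilament chains and the lamins A/C, B1 and B2 are encoded by VIM, NES, SYNM, KRT8, KRT18, NEFL, NEFM, LMNA, LMNB1 and LMNB2. These 10 genes were taken by name from a count table of 58870 genes, and all 10 had a count in at least 1 library. They were measured by RNA sequencing in WM164, an established human melanoma cell line grown in RPMI medium with 5% serum. The control cells carried a lentiviral construct for green fluorescent protein (GFP, 3 libraries), and the compared cells carried T-MGM (3 libraries), in which the small MAF protein MAFG and the melanocyte transcription factor MITF are joined by a flexible linker into a single protein. Per the study's methods, both constructs were driven by the EF1α promoter in a vector with blasticidin resistance. By this design the groups differ in the expressed protein in the same cell line, which the RNA values of MAFG and MITF below did not bear out. Nothing in the labels says whether the 3 libraries of a group came from separate cultures, so the p-values below measure the spread between these libraries, which may be technical.

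Intermediate filaments are rope-like polymers of coiled-coil proteins that give a cell its resistance to stretch. Vimentin forms them in mesenchymal and melanocytic cells, nestin and synemin join vimentin filaments rather than forming their own, keratins 8 and 18 polymerise as obligate partners in simple epithelia, and the neurofilament chains do so in neurons. Lamins are the nuclear members of the family and line the inner nuclear membrane, where A-type lamins come from LMNA and B-type lamins from LMNB1 and LMNB2.

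The GFP libraries held 35057239 to 38738065 counts each, and those labelled T-MGM 44577774 to 59250663. The genes of the construct did not bear out the labels. MAFG was not higher, with 2458 ± 70.3 normalized counts (SD, n = 3) in the GFP libraries and 2358 ± 34.9 in those labelled T-MGM (DESeq2 adjusted p = 0.236). MITF differed by a log2 fold change of only 0.08 (DESeq2 adjusted p = 4.8e-07). Whether reads of the construct are counted in the MAFG and MITF rows is not known. The summed level of 6 melanocyte lineage markers was 964 to 977 TPM (a level scaled for transcript length and library depth) with GFP and 831 to 865 in the libraries labelled T-MGM, with 3 of the 6 higher in normalized counts (MITF, SOX10 and PMEL, each lower in mean TPM) and 3 lower (TYR, MLANA and, at a log2 fold change of -2.49, DCT). The 5 blood cell markers summed to at most 0.120 TPM. Normalized counts are counts divided by the DESeq2 size factor of the library, and fold changes are T-MGM over GFP. A gene passed the DESeq2 test where its p, adjusted by Benjamini-Hochberg over 19135 genes tested, was 0.05 or less.

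Of the 10 genes, 9 were tested, and 6 of them were higher in the libraries labelled T-MGM, namely SYNM, NES, KRT8, VIM, KRT18 and LMNB1. Among all genes tested, 38.4% passed, of which as many rose as fell, so that 19.2% passed in each direction. In DESeq2, 0 of the 9 were lower, 0 were lower at an unadjusted p under 0.05, and edgeR also gave 0 by both counts. NEFL, LMNA and LMNB2 did not pass, and NEFM had too few counts for an adjusted p. The median log2 fold change of the 9 genes was 0.32, beside -0.00 over all genes tested. In 6 of the 9 the groups had separate ranges of normalized counts, as in 46.8% of all genes tested. SYNM and NES also passed a 2-fold threshold, which 3.26% of all genes tested passed as higher and 1.36% as lower. In these bulk libraries, more cells expressing a gene and more RNA per cell cannot be told apart.

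**Figure D1:**
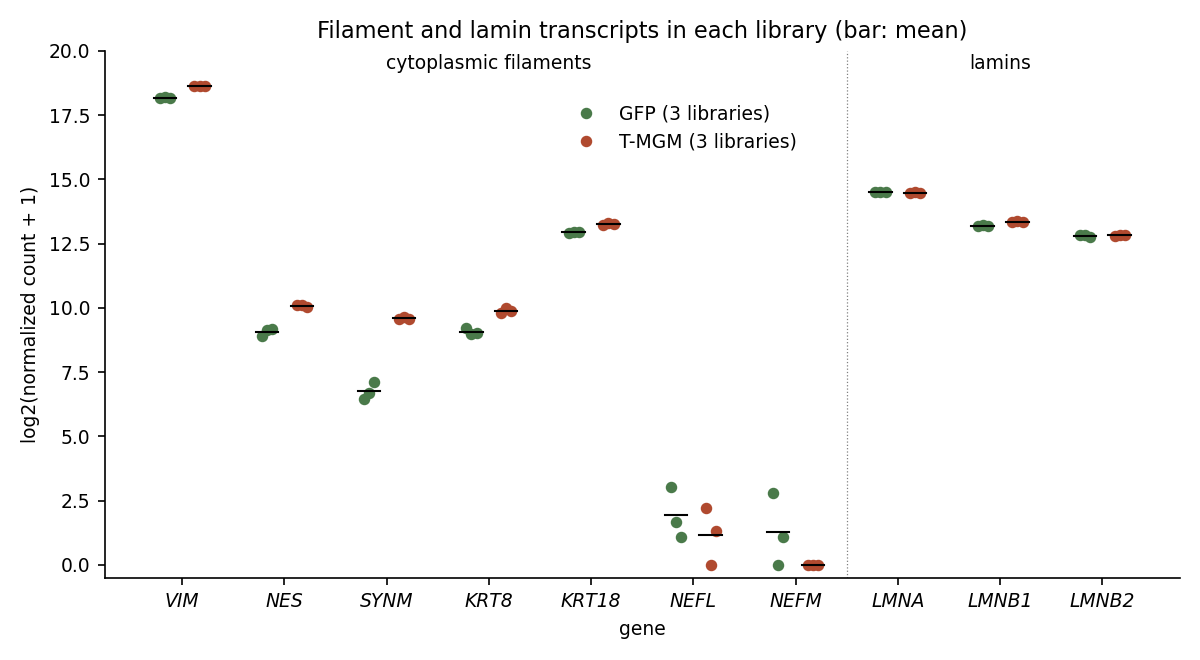
Each point is a library (GFP in green, T-MGM in red, 3 each), placed by its log2(normalized count + 1) on the y axis for each of the 10 genes on the x axis, and the bar is the group mean. The groups lie furthest apart for SYNM, at 86.3 to 137 normalized counts with GFP and 765 to 791 with T-MGM, while the lamins sit close together and NEFL and NEFM lie at the bottom.

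Levels per transcript length spanned a wide range. VIM had 3520 ± 26.6 TPM (SD, n = 3) with GFP, rank 26 of all genes in the table, followed by LMNA at 276 ± 7.99 TPM, KRT18 at 127 ± 2.64 TPM and LMNB1 at 69.6 ± 2.88 TPM. LMNB2 came next at 39.2 ± 1.33 TPM, then KRT8 at 15.3 ± 0.172 TPM, NES at 1.95 ± 0.210 TPM and SYNM at 0.24, 0.28 and 0.43 TPM. Neighbours in this order differed by more than their SDs, except NEFL and NEFM, whose means were both 0.0200 TPM. The order from VIM to SYNM was the same in the libraries labelled T-MGM, from 4348 ± 67.2 TPM for VIM to 2.02 ± 0.0608 TPM for SYNM. VIM made up 96 ± 0.071% of the summed TPM of the 7 cytoplasmic filament genes with GFP and 96.1 ± 0.11% with T-MGM. The share of KRT18 was 3.48 ± 0.066% and 3.18 ± 0.065%, and that of SYNM was 0.00865 ± 0.0028% and 0.0447 ± 0.0008%.

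The sequences before the start sites of the 3 genes that share vimentin filaments are shown because, among the genes that passed, SYNM and NES had the largest fold changes and VIM the highest level. They are the 250 bases upstream of the RefSeq start on GRCh38.p14, written 5′ to 3′ on the strand of the gene, with GC boxes (GGGCGG on either strand) in capitals. SYNM lies at chr15:99104830-99105079 on the plus strand, inside the span that GENCODE gives the gene. NES lies at chr1:156677408-156677657 on the minus strand and VIM at chr10:17227991-17228240 on the plus strand.
SYNM: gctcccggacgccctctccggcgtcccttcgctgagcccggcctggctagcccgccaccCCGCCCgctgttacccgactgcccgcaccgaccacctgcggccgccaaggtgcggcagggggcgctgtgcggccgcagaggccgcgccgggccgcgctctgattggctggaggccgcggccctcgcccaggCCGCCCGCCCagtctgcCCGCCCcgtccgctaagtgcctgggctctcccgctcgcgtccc
NES: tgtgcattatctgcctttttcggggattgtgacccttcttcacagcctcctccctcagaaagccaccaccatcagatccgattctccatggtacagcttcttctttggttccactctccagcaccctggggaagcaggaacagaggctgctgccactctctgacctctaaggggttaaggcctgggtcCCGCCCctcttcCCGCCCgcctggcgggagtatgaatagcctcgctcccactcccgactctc
VIM: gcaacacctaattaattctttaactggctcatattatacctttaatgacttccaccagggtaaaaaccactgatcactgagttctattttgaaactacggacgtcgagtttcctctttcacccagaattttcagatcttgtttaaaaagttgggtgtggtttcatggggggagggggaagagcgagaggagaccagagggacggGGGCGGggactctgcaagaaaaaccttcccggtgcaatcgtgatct
The SYNM window was 78.8% G and C with 34 CpG dinucleotides, the NES window 58% with 8 and the VIM window 46% with 8, beside medians of 58% and 11 over 35116 RefSeq windows of this length. The GC box occurred 4 times before SYNM, 2 times before NES and 1 time before VIM, and 2 of the matches before SYNM overlapped. It was present in 42.6% of all windows. Windows were found for 7 of the 10 genes (VIM, NES, SYNM, KRT8, LMNA, LMNB1 and LMNB2), and LMNA and LMNB2 also held 1 GC box each. The 7 windows held no match, on either strand, to the E-boxes CACGTG (in 6.34% of all windows) and CATGTG (9.42%), which MITF-type proteins bind. Nor did they hold the AP-1 site TGANTCA (6.57%), TGCTGA (14%), which is part of the small MAF recognition element, or the TATA box TATAAA (10.7%). These letters were absent from these windows only, and distal sites were not searched.

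SYNM (ENSG00000182253.14; chromosome 15, 99098217 to 99135593, GRCh38), whose product links vimentin and desmin filaments to the cell cortex, had the largest difference of the genes that passed. It had 86.3, 103 and 137 normalized counts with GFP and 767, 791 and 765 with T-MGM. Every T-MGM library lay far above every GFP library, and the spread was 23.8% of the mean (coefficient of variation) with GFP against 1.90% with T-MGM. The means of 109 ± 25.9 and 774 ± 14.7 (SD, n = 3) correspond to a fold change of 7.11 (95% limits 6.02 to 8.38, DESeq2 adjusted p = 1.52e-117). In rank, 99.2% of the genes tested had a lower log2 fold change. Raw counts were 72, 95 and 120 with GFP and 841, 811 and 1036 with T-MGM, so the GFP values rest on few reads. The log2 fold change of 2.83 became 1.20 on log2(TPM + 1), a scale that understates the change of low genes. The antisense genes SYNM-AS1 and SYNM-AS2 overlap the locus on the opposite strand, and since the labels name a kit without strand information while the methods name a strand-specific one, reads of overlapping genes may not be separated.

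NES (ENSG00000132688.11; chromosome 1, 156668763 to 156677407, minus strand), encoding nestin, a filament protein of neural stem and neural crest cells, had 480, 560 and 586 normalized counts with GFP and 1097, 1107 and 1055 with T-MGM. The groups did not overlap, and the lowest T-MGM library stood well above the highest GFP library. The means were 542 ± 55.4 and 1087 ± 27.7, a log2 fold change of 1.00 (SE 0.07, 95% limits of the fold 1.81 to 2.21, DESeq2 adjusted p = 4.86e-40), which is at the 2-fold threshold. NES stayed higher in all 17 alternative fits, with log2 fold changes of 0.62 to 1.06, but was over 2-fold in 9 of them. The summed level of 8 neuronal and glial markers was 318 to 332 TPM with GFP and 248 to 253 TPM with T-MGM, with 1 of 7 tested markers higher and 2 lower. The sum was carried by S100B (183 TPM with GFP and 142 with T-MGM), TUBB3 (81.0 and 87.2) and MBP (58.6 and 19.6), of which TUBB3 was the marker that passed as higher and S100B and MBP those that passed as lower. STMN2 had no count in any library and GFAP at most 7 counts. The part of these markers in the NES difference was not tested.

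VIM (ENSG00000026025.16; chromosome 10, 17228241 to 17237593), encoding vimentin, the main cytoplasmic filament of these cells, had 297146, 298361 and 294252 normalized counts with GFP. The libraries labelled T-MGM had 406010, 407366 and 406242. Both groups were tight and did not overlap, with coefficients of variation of 0.712% and 0.178%. The fold change was 1.37 (95% limits 1.35 to 1.39), with a DESeq2 adjusted p below the smallest number the software stores, written as 0. VIM took 0.707%, 0.711% and 0.700% of all counts in the GFP libraries and 0.933%, 0.937% and 0.929% in those labelled T-MGM. The antisense gene VIM-AS1 overlaps VIM on the opposite strand and had 163 ± 17.9 normalized counts with GFP and 211 ± 21.8 with T-MGM (log2 fold change 0.37, SE 0.15, DESeq2 adjusted p = 0.0379). Its raw counts were 122 to 257 in the 6 libraries, beside 247795 to 550507 for VIM.

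Fibroblasts also make vimentin, so their markers were set beside these genes. The summed level of 8 fibroblast markers was 4.39 to 4.94 TPM with GFP and 5.50 to 7.33 TPM with T-MGM, and 4 of the 6 tested were higher, 3 of them over 2-fold. These were LUM (304 and 516 normalized counts, log2 fold change 0.77), which made up most of the sum, PDGFRA (54.9 and 155, a fold change of 2.82), COL1A1 (24.9 and 58.5, log2 fold change 1.23) and PDGFRB (10.6 and 27.3, log2 fold change 1.37). PDGFRB had overlapping groups (DESeq2 adjusted p = 0.0482). It missed the threshold with the replicate number as a block (DESeq2 adjusted p = 0.122) and without T-MGM replicate 3 (0.391), among other alternatives. LUM missed it in the 3 limma fits on TPM (adjusted p = 0.0595 to 0.172). Among all genes tested, 19.2% passed as higher and 3.26% as over 2-fold higher. None of the 8 was at 0 in every library, and COL1A2, COL3A1, THY1 and DCN reached at most 5, 2, 7 and 10 counts. The part of these markers in the VIM, NES and SYNM differences was not tested.

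KRT8 (ENSG00000170421.12; chromosome 12, 52897187 to 52949954, minus strand) and KRT18 (ENSG00000111057.11; chromosome 12, 52948871 to 52952906, plus strand) encode the type II and type I keratins of simple epithelia, and the gene models overlap by 1084 bases on opposite strands. KRT8 had 590, 500 and 521 normalized counts with GFP and 890, 1022 and 945 with T-MGM, with no overlap between groups. Its fold change was 1.78 (95% limits 1.59 to 1.98, DESeq2 adjusted p = 3.1e-24). KRT18 had 7784, 7848 and 7961 normalized counts with GFP and 9623, 10044 and 9804 with T-MGM, again without overlap. Its fold change was smaller, at 1.25 (95% limits 1.21 to 1.29, DESeq2 adjusted p = 4.43e-46), and its log2 fold change of 0.32 was 0.17 on TPM.

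Both keratin genes have many processed pseudogenes. Only unique reads were counted, so reads that match several near-identical copies may be left out, and some others may be assigned to a pseudogene row. The 50 rows named as KRT8 pseudogenes together held 180, 183 and 170 reads with GFP and 197, 205 and 252 with T-MGM, which equals 36.6% to 39.6% of the KRT8 count with GFP and 19.6% to 20.2% with T-MGM. After normalization the pseudogene reads were 194 to 216 with GFP and 180 to 200 with T-MGM. With these reads added to KRT8 its log2 fold change was 0.63 in place of 0.83. This sum does not restore reads left out as not unique, so 0.63 is not a corrected value. For KRT18 the 68 pseudogene rows held reads equal to 2.8% to 3.19% of the parent count with GFP and 2.16% to 2.47% with T-MGM.

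Most other keratins were nearly silent. Of 64 further rows with keratin names, some of them pseudogenes such as KRT42P, 49 had at most 3 counts in every library. KRT10, a suprabasal keratin of skin named after its values were seen, was the only one over 100 counts in every library. It had 891 ± 42.7 normalized counts with GFP and 954 ± 80.5 with T-MGM (DESeq2 adjusted p = 0.292). On TPM it had 21.0 with GFP and 20.2 with T-MGM, beside 15.3 for KRT8 with GFP. Of 7 tested, 2 were higher, both over 2-fold and both from low counts. KRT80 had 10.6 ± 2.76 and 31.5 ± 4.92 normalized counts (log2 fold change 1.57, SE 0.47, DESeq2 adjusted p = 0.00307). KRT81, a hair keratin, had 12.4 ± 4.67 and 30.5 ± 1.11 (log2 fold change 1.29, SE 0.46, DESeq2 adjusted p = 0.0154). Without GFP replicate 1 its value was 1.02 (adjusted p = 0.0988 in DESeq2), and without T-MGM replicate 1, 2 or 3 it also missed the threshold (0.0528, 0.0589 and 0.0621). None passed as lower, also at an unadjusted p under 0.05, in DESeq2 or edgeR. The 7 epithelial markers summed to 3.73 to 4.46 TPM with GFP and 3.34 to 3.38 TPM with T-MGM, and 0 of the 2 tested passed in DESeq2 or edgeR, with 1 lower at an unadjusted p under 0.05 in each. ESRP1 carried most of this sum, at 3.79 TPM with GFP and 2.98 with T-MGM, and CLDN4 reached 44 counts, while EPCAM and GRHL2 reached at most 2, CDH1 and KRT5 at most 3 and KRT14 at most 5.

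NEFL and NEFM, the light and medium chains of neuronal filaments on chromosome 8, were barely detected. NEFL had 6, 2 and 1 raw counts with GFP and 4, 0 and 2 with T-MGM, and the groups overlapped (DESeq2 adjusted p = 0.658). NEFM had 5, 0 and 1 raw counts with GFP and 0 in each T-MGM library. A floor of 3 counts per library equals 0.0506 to 0.0856 CPM (counts scaled to library depth), covering counting error only. A decrease, or a small increase, between groups was therefore not detectable at this depth.

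The lamins moved little. LMNA (ENSG00000160789.20; chromosome 1, 156082573 to 156140081), the source of lamins A and C, had 23331, 23220 and 22989 normalized counts with GFP and 22766, 23167 and 22932 with T-MGM. The groups overlapped, and the fold change was 0.990 (95% limits 0.971 to 1.01, DESeq2 adjusted p = 0.51). On TPM the values were 272.10, 270.03 and 284.79 with GFP and 240.39, 241.45 and 234.02 with T-MGM, which did not overlap, and LMNA passed as lower in 5 of 17 alternative fits. These were total counts as scaling (log2 fold change -0.07, DESeq2 adjusted p = 3.2e-05), the 3 limma fits on TPM (-0.21 in each) and a correction for GC content and length (-0.14). In the TPM fits the median of well-counted genes was itself shifted by -0.13 to -0.15 on the log2 scale. That median was -0.06 with total counts as scaling and 0.00 after the GC content and length correction.

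LMNB1 (ENSG00000113368.12; chromosome 5, 126776623 to 126837020), encoding lamin B1, had 9228, 9488 and 9318 normalized counts with GFP and 10250, 10543 and 10442 with T-MGM. The groups did not overlap in these counts, and the fold change was 1.11 (95% limits 1.08 to 1.15, DESeq2 adjusted p = 3.49e-13). The log2 fold change of 0.16 was 0.10 with total counts as scaling. On TPM the direction flipped and the groups overlapped, at 69.6 ± 2.88 with GFP and 68.8 ± 1.42 with T-MGM (log2 difference -0.02 in each of the 3 limma fits, adjusted p = 0.769 to 0.787). In those fits the median of well-counted genes was lower still, at -0.13 to -0.15, so the flip is not particular to LMNB1. LMNB2 (ENSG00000176619.13; chromosome 19, 2427638 to 2456959, minus strand), encoding lamin B2, had 7239, 7363 and 6951 normalized counts with GFP and 7147, 7320 and 7392 with T-MGM. These overlapped, with a fold change of 1.01 (95% limits 0.980 to 1.05, DESeq2 adjusted p = 0.588). After the correction for GC content and length LMNB2 passed as lower (log2 fold change -0.11, DESeq2 adjusted p = 4.54e-05).

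**Figure D2:**
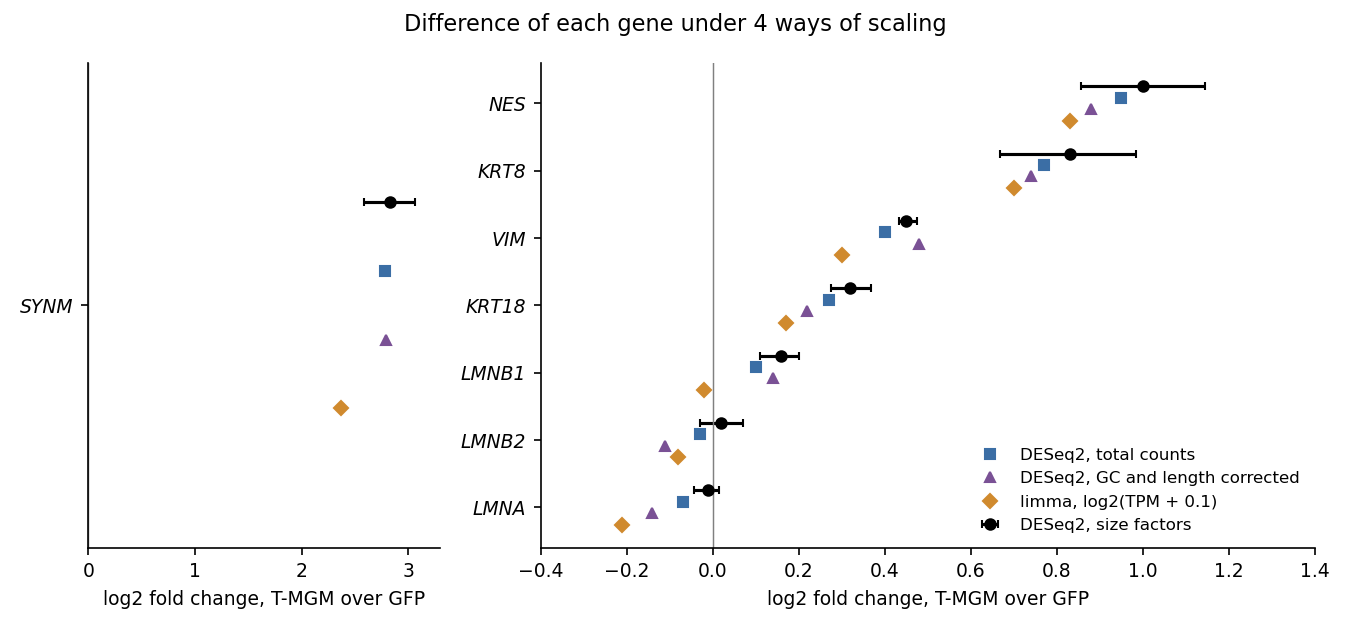
The x axis is the log2 fold change, T-MGM over GFP, with SYNM on the left at its own scale. NES, KRT8, VIM, KRT18, LMNB1, LMNB2 and LMNA are on the right. Black points with bars are DESeq2 estimates with 95% limits, and the coloured symbols are the same difference under other scalings. SYNM, NES, KRT8, VIM and KRT18 lie to the right of 0 under each scaling, while LMNB1 falls to -0.02 and LMNA to -0.21 on TPM. The median of well-counted genes was itself at -0.15 in that TPM fit.

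Ratios within a library do not depend on how libraries are scaled, so partners were also compared in that way, on TPM. The exact 2-sided permutation test over 3 against 3 libraries cannot go below p = 0.1, and p-values were adjusted over the 4 ratios. LMNA over the sum of LMNB1 and LMNB2, the A-type to B-type lamin ratio, was 2.5, 2.44 and 2.66 with GFP and 2.35, 2.15 and 2.27 with T-MGM. The groups did not overlap, and the mean log2 difference was -0.17 (exact permutation p = 0.1, adjusted 0.1). LMNB1 over LMNB2 was 1.78 ± 0.13 and 1.86 ± 0.16 (SD, n = 3), with overlapping groups (log2 difference 0.07, exact permutation p = 0.6, adjusted 0.6). On raw counts the LMNB1 to LMNB2 ratio was 1.27, 1.29 and 1.34 with GFP and 1.43, 1.44 and 1.41 with T-MGM, which did not overlap, and the log2 difference was 0.14.

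The KRT8 to KRT18 ratio was 0.124, 0.118 and 0.118 with GFP and 0.155, 0.176 and 0.188 with T-MGM. All T-MGM libraries lay above all GFP libraries, with a mean log2 difference of 0.53 (exact permutation p = 0.1, adjusted 0.1). On raw counts the difference was 0.51, and 0.31 with the pseudogene reads added to their parents. The NES to VIM ratio was 0.000553 ± 5.9e-05 with GFP and 0.00081 ± 1.9e-05 with T-MGM, again without overlap (log2 difference 0.56, exact permutation p = 0.1, adjusted 0.1), and the difference was 0.32 with 1 TPM added to each gene.

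**Figure D3:**
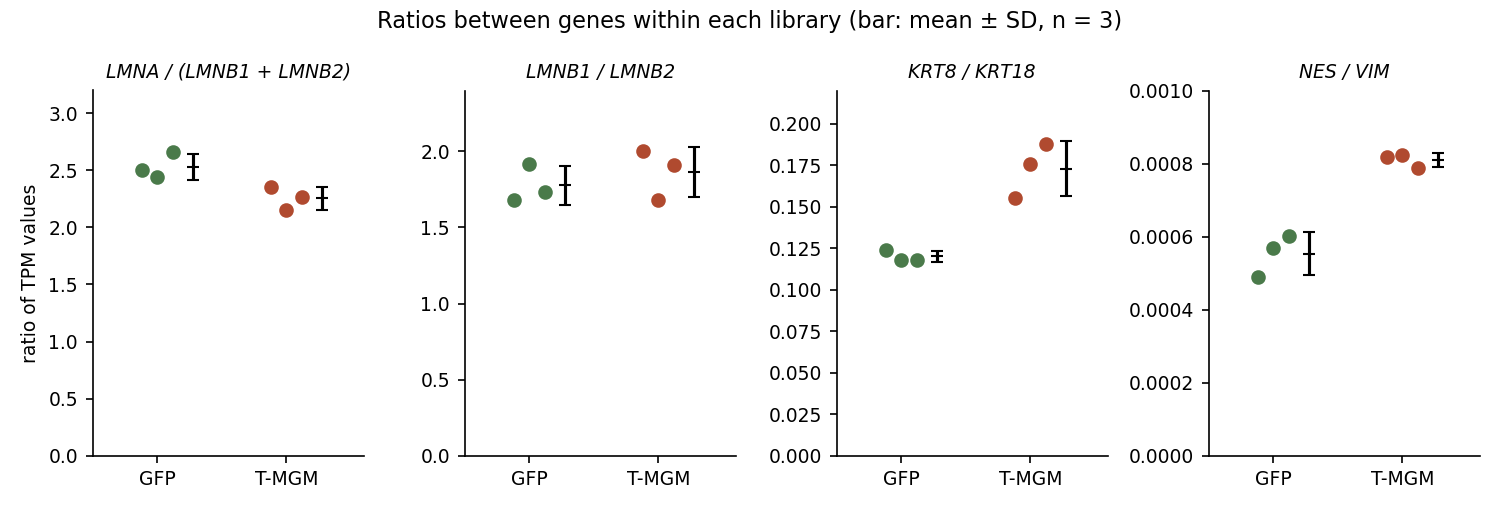
Each panel shows the ratio of TPM values between named genes (y axis, from 0) in the 3 GFP libraries (green) and the 3 T-MGM libraries (red), with mean and SD beside them. The KRT8 to KRT18 and NES to VIM ratios are higher in every T-MGM library, the A-type to B-type lamin ratio is lower, and LMNB1 to LMNB2 overlaps.

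Genes whose products build, anchor or modify the filaments, and a list of proliferation genes, were examined as 8 lists. Of 64 genes tested in them, 26 were higher and 13 lower. Among all genes tested, 19.2% passed in each direction, and the 13 lower lie near that share. The count of each list is to be read beside it. Of 5 lamin maturation enzymes, which process the farnesylated tails of lamins, 3 were lower and 0 higher, with 0 higher also at an unadjusted p under 0.05 and in edgeR. ICMT, the carboxyl methyltransferase, had 11658 ± 131 and 9423 ± 141 normalized counts (log2 fold change -0.31, SE 0.02, DESeq2 adjusted p = 3.86e-52). ZMPSTE24, the prelamin A protease, had a log2 fold change of -0.32, or -0.18 after the GC content and length correction, and FNTB, the farnesyltransferase beta subunit, one of -0.28, or -0.45 on TPM. The list median was -0.28, beside -0.00 over all genes tested.

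Of 13 nuclear envelope partners, 6 were higher and 3 lower (median log2 fold change 0.02). BANF1, which bridges chromatin to the envelope, had 4592 ± 113 and 6067 ± 94.5 normalized counts (log2 fold change 0.40, SE 0.03, DESeq2 adjusted p = 1.64e-47), and SUN2, which ties lamins to the cytoskeleton, rose by 0.41 on the log2 scale. These values were 0.24 for BANF1 after the GC content and length correction and 0.26 on TPM, and 0.22 for SUN2 on TPM. TOR1AIP1, a lamin-binding membrane protein, fell by 0.28 on the log2 scale. LBR, the lamin B receptor, named after its values were seen, fell by 0.34, or by 0.19 after the correction.

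Of 11 cytolinkers and anchors, which tie filaments to each other and to junctions, 6 were higher and 0 lower, with 0 lower at an unadjusted p under 0.05 and in edgeR (median log2 fold change 0.14). PLEC, encoding plectin, had 43959 ± 446 and 63417 ± 1351 normalized counts (log2 fold change 0.53, SE 0.02, DESeq2 adjusted p = 9.61e-262), or 0.35 after the GC content and length correction. DMD, encoding dystrophin, was over 2-fold higher but from few reads, with raw counts of 7, 18 and 8 against 79, 54 and 60 (log2 fold change 2.17, SE 0.41, DESeq2 adjusted p = 8.98e-07). DSP and JUP, encoding the desmosomal desmoplakin and plakoglobin, were also over 2-fold higher, with 15.8 ± 8.15 and 42.9 ± 3.34, and 17.4 ± 11.6 and 43.7 ± 8.65 normalized counts. JUP missed the threshold without GFP replicate 2 (log2 fold change 0.87, DESeq2 adjusted p = 0.0946) and without T-MGM replicate 3 (1.18, DESeq2 adjusted p = 0.0879). UTRN, encoding utrophin, had a log2 fold change of 0.12 and 0.04 on TPM, and DST, encoding dystonin, 0.14 and -0.05 on TPM, where neither passed.

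Of 5 filament chaperones and turnover genes, 2 were higher. CRYAB, the small heat shock protein alpha-B crystallin, had 70.4 ± 5.30 and 234 ± 33.9 normalized counts (log2 fold change 1.74, SE 0.18, DESeq2 adjusted p = 1.93e-20). BAG3, a co-chaperone, had a log2 fold change of 0.26, or 0.16 after the GC content and length correction and 0.11 on TPM. Of 8 kinases that phosphorylate filaments or lamins, 3 were higher and 3 lower, and the largest test statistics belonged to ROCK1 (log2 fold change -0.46), AURKA (-0.31) and ROCK2 (-0.27, or -0.15 after the correction). The 7 other filament proteins gave 3 tested genes and 0 calls, also at an unadjusted p under 0.05 and in edgeR.

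LMNB1 is known to vary with proliferation, so proliferation genes were set beside it. Of 12, 7 were higher and 3 lower, with a median log2 fold change of 0.10. MCM5, a subunit of the replicative helicase, had a log2 fold change of 0.41, or 0.27 on TPM. MCM4 at 0.14 and the marker MKI67 at 0.10 turned to -0.04 and -0.17 on TPM, the scale on which LMNB1 also flipped. On that scale the median of well-counted genes was itself shifted to -0.13. The part of these genes in the LMNB1 difference was not tested.

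**Figure D4:**
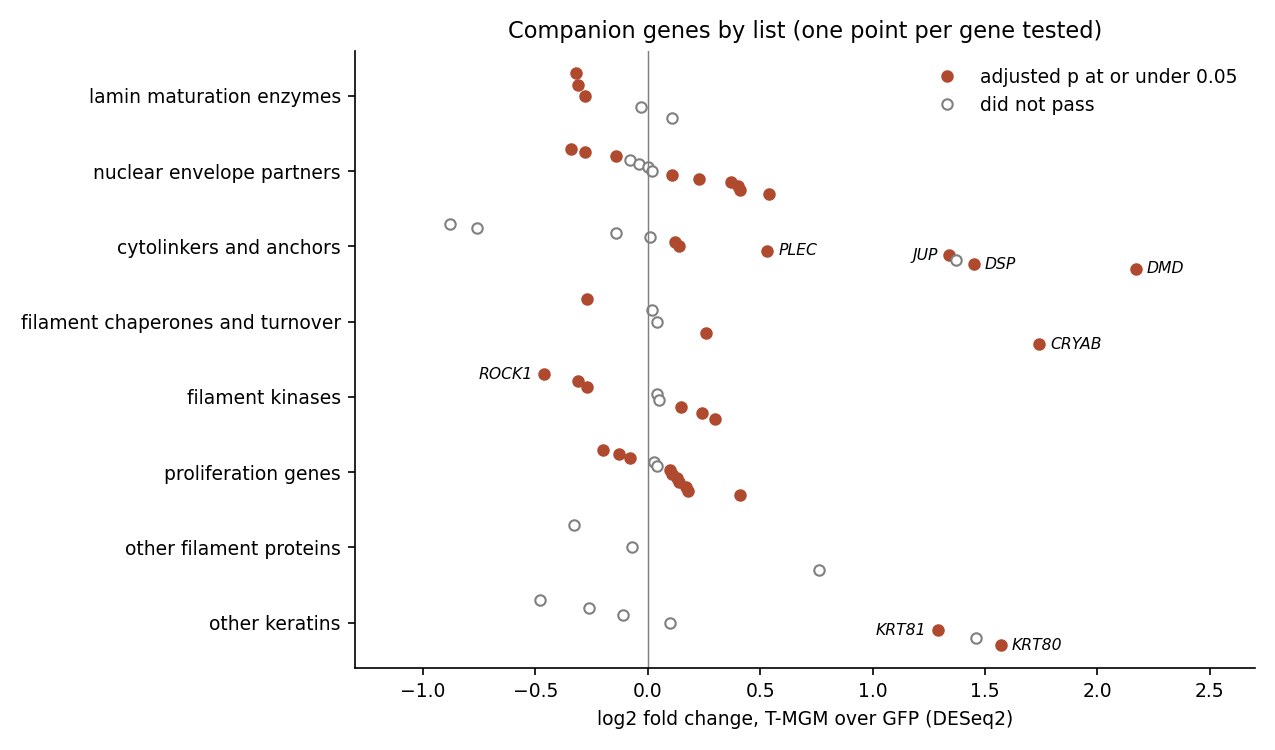
Each point is a gene tested, placed by its log2 fold change, T-MGM over GFP (x axis), in the row of its list, filled where the DESeq2 adjusted p was at or under 0.05 and open otherwise. All 3 lamin maturation enzymes that passed lie left of 0, and DMD at 2.17, CRYAB at 1.74 and KRT80 at 1.57 lie furthest right.

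The neighbourhoods of the genes were described by the median log2 fold change of all genes within 10 Mb that averaged 50 or more normalized counts. It was 0.01 over 56 genes around SYNM, -0.14 over 215 around NES, -0.20 over 58 around VIM and 0.06 over 178 around the keratin pair, whose own values were 2.83, 1.00, 0.45, 0.83 and 0.32. NES and LMNA lie 529 kb apart on chromosome 1 and share most of these neighbours, with log2 fold changes of 1.00 and -0.01.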

How the data were processed

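RNA from 3 GFP and 3 T-MGM libraries of WM164 cells was analysed, with groups from the labels. Per the submitters' processing notes and the study's methods, the authors trimmed reads with cutadapt 1.8.1, aligned them to GRCh38 with STAR 2.7.7a and counted unique reads per gene with featureCounts. The deposited count values are whole numbers, not normalized, with replicates apart. The deposited TPM values, scaled to transcript length and depth, are attributed to RSEM 1.3.0 from the submitters' notes. The annotation release is not given in the sources used here.

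All 58870 rows were fitted with DESeq2 1.42.0 in R 4.3.3 (group only, 2-sided Wald test, median-of-ratios size factors, no shrinkage, independent filtering at 0.05). The dispersion trend was a local regression. Calls over 2-fold also needed an absolute log2 fold change over 1. Alternatives were edgeR 4.0.16 (quasi-likelihood, TMM), DESeq2 scaled by TMM factors or by total counts, at least 10 counts in 3 libraries, no independent filtering, a replicate block, each replicate left out, limma 3.58.1 with trend on log2 of TPM plus 1 or 0.1 (minimum TPM 0.5 in 3 libraries, or none), a lowess correction for GC content and length (span 0.3), and keratin pseudogene reads added. Steps were tested on simulated data. Positions are from GENCODE release 44, promoters from RefSeq.

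The 10 genes and the companion lists were chosen with earlier results of these data known. Named companions were those called over 2-fold and the 3 with the largest absolute Wald statistic among those that passed in each list. A named companion that this rule gives is not reported here.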

Additional observations from a re-analysis of the deposited data

How the results depend on the processing

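VIM, NES, SYNM, KRT8 and KRT18 passed as higher in all 17 alternatives, with log2 fold changes of 0.30 to 0.48, 0.62 to 1.06, 1.20 to 3.03, 0.63 to 0.90 and 0.17 to 0.34. The count of genes that passed as lower was 1 in place of 0 with total counts and in each of the 3 limma fits on TPM (LMNA), and 2 after the GC content and length correction (LMNA and LMNB2). LMNB1 reversed to -0.02 in the 3 limma fits, in which the median of well-counted genes was -0.13 to -0.15. LMNB2 reversed to -0.03 with total counts, -0.0014 without GFP replicate 3, -0.08 in the 3 limma fits and -0.11 after the GC content and length correction, and NEFL to 0.05 without GFP replicate 1. With each library left out, NEFL ranged from -2.16 to 0.05 and LMNB2 from -0.0014 to 0.04. Companion genes that passed numbered 39, against 23 in limma on log2(TPM + 1) with a minimum TPM of 0.5. DMD, DSP, JUP, KRT80 and KRT81, which passed in DESeq2, fell under that minimum and were not tested there. The cause of the other changes was not tested. Among all genes, the share of passing genes that were higher was 50% in DESeq2, 38.7% with total counts as scaling and 20.8% to 21.8% on TPM.

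With each library left out in turn, 6 genes stayed higher and 0 lower, and the log2 differences ranged from -0.20 to -0.13 for the A-type to B-type lamin ratio, 0.01 to 0.14 for LMNB1 to LMNB2, 0.46 to 0.60 for the keratin pair and 0.47 to 0.62 for NES to VIM. The titles share replicate numbers, but same-numbered libraries did not deviate together (correlations of -0.01, -0.06 and 0.03), and not every library correlated best with its own number. With the replicate number as a block, 6 of the genes passed as higher and 0 as lower, and all genes passing numbered 3022 higher and 3077 lower against 3675 and 3675. KRT81 missed the threshold under the block (DESeq2 adjusted p = 0.0505). The block left the ratio differences at -0.17, 0.07, 0.53 and 0.56. The NEFL to NEFM ratio could not be computed, since only 2 libraries had both above 0. Depth limits SYNM with GFP, the neurofilaments and the low keratins.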
